A study of Mus musculus with 12 samples.

Results

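The AP-1 and Egr immediate early genes examined here are Fos, Fosb, Fosl2, Jun, Junb, Jund, Egr1, Egr2, Ier2 and Ier3, chosen by gene symbol. They are 10 of 18193 genes and were measured by 14 of 45037 probe sets, all of those that the platform annotation assigns to one of these 10 symbols, and no probe set shared with another gene named any of them. Immediate early genes are switched on within minutes of a growth factor, serum or stress signal, from transcription factors that already sit at their promoters, and their mRNAs are short-lived. Fos and Jun family proteins pair through leucine zippers to form the dimeric factor AP-1, and Egr proteins are zinc finger factors that bind GC-rich DNA. In mouse embryonic stem (ES) cells the ERK kinase pathway, which drives many of these genes, is known for promoting exit from the undifferentiated state.

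The cells were KH2, 1 mouse ES cell line, grown on feeder cells in 4 groups of 3 arrays lettered A to C: untreated (no RA), and treated for 2, 4 or 6 h with retinoic acid (RA), a vitamin A derivative that binds nuclear receptors. Treated cells received 0.3 µM RA in a serum-containing differentiation medium. The labels do not say that untreated cells received that medium, so RA and medium cannot be told apart in any comparison against no RA. No group is labelled as medium alone, so time in RA and time in medium also cannot be told apart between RA times. Per the protocols, cells were detached with trypsin and replated on gelatin for 30 min before RNA was taken, and the texts differ on whether attached or unattached cells were kept. All levels are those after this handling, and its effect on these genes was not tested. Whether the arrays of a group came from separate cultures is not stated, so p-values measure the spread between these samples, possibly a technical one, and the number of arrays limits the precision.

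Values are log2 signal as deposited, and levels are not compared between genes. The ES cell markers Pou5f1, Sox2, Nanog and Zfp42 had values of 11.8 or more on all 12 arrays. The fibroblast markers Col1a1, Col1a2, Col3a1, Thy1 and Postn, which feeder cells express, also lay above the median of all values, 6.07, on all 12. Untreated replicate C stood apart: it correlated at 0.993 with the other untreated arrays, which correlated at 0.997 with each other, and RA arrays of one time correlated at 0.997 or more. In C, 24 of 29 measured feeder fibroblast markers were under their mean in the other untreated pair, with a median difference of -0.45 over the 29. Calls on a gene's brightest probe set that depend on that array are given with and without it. In bulk RNA, fewer cells of a type and less RNA per cell cannot be told apart.

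The bases before the transcription start are shown for the 4 genes that were lower in RA and have a promoter entry, since these 4 fell together and immediate early promoters are known to hold sites for signal-responsive factors. The sequences are from RefSeq, build GRCm38.p6, and hold the 250 bases before the start, 5′ to 3′ on the gene's strand. Of the 10 genes, 8 had an entry. Capitals mark matches, on either strand, to one of 5 motifs: the CArG box, the site of serum response factor; TGACGT, the core of the cyclic AMP response element; TGANNTCA, an ATF and Jun type site; TGANTCA, the AP-1 site; and GCGNGGGCG, the Egr site.
Fos, chr12:85473640-85473889, plus strand: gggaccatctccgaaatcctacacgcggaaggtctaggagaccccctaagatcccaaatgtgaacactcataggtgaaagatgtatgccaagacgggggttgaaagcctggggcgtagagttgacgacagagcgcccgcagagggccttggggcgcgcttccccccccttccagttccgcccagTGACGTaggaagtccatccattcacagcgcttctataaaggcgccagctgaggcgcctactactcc
Fosb, chr7:19310046-19310295, minus strand: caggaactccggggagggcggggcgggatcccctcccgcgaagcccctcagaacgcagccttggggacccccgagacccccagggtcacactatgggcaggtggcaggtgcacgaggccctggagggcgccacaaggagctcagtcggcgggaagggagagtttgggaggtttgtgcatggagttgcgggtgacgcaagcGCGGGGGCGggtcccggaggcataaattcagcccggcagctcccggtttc
Jun, chr4:95052223-95052472, minus strand: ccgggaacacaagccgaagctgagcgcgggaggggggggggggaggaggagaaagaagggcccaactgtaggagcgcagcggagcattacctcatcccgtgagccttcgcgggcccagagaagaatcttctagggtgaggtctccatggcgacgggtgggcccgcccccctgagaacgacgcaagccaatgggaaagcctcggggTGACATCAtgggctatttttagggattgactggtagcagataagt
Egr2, chr10:67537619-67537868, plus strand: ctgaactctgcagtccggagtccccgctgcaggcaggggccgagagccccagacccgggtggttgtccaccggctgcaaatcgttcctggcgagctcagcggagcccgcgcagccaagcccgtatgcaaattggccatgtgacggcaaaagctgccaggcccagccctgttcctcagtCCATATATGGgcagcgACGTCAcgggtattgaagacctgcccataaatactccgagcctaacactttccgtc

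In the Fos window TGACGT began at base -66 from the start site, and in the Jun window TGACATCA, a match to TGANNTCA, began at base -45. The Egr2 window held a CArG box, beginning at base -72, and TGACGT on the opposite strand at base -56. RefSeq gives 5 starts for Egr2; the window shown belongs to the first of 3 starts that lie close together, and the other 2 of these hold the same matches. Of the 2 starts further upstream, 1 window held no match and 1 held a different CArG box and no TGACGT. The Fosb window held GCGGGGGCG at base -50, and the Fosl2 window held the same Egr-type match at base -79. Jund had a match to TGANNTCA at base -61, and Junb and Ier3 had no match to any of the 5. Over 32851 mouse promoter windows of the same length, 1.47% held a CArG box, 6.47% TGACGT, 11.9% TGANNTCA, 6.75% TGANTCA and 4.70% GCGNGGGCG. These matches describe letters in a window, and binding was not measured.

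In RA, 5 of the 10 genes fell. Egr1, Egr2, Fos, Fosb and Jun were lower at 4 h and again at 6 h, by between 1.55-fold and 2.83-fold, and Fos, Jun and Egr1 were already lower at 2 h. The Fosb call at 6 h held in only 7 of 16 alternative fits, and the Fos call at 2 h in 13 of 16. Junb, Jund, Fosl2, Ier2 and Ier3 did not pass the test against no RA at any time. No member was called higher against no RA, where 1.50%, 12.8% and 15.0% of all genes were at 2, 4 and 6 h. By limma with Benjamini-Hochberg adjustment over 18193 genes, each on its brightest probe set, 3, 5 and 5 of the 10 were lower at 2, 4 and 6 h (adjusted p under 0.05). The same call was made for 1.19%, 14.1% and 14.7% of all genes. All RA arrays of a time lay below all untreated ones for 4, 5 and 5 of the 10, and for 11.7%, 18.7% and 19.7% of all genes. The comparisons with no RA share their untreated arrays. The median log2 difference of the 10 was -0.37, -0.73 and -0.42 at 2, 4 and 6 h, against 0.0043, 0.0023 and -0.014 over all genes. Fos, Jun and Egr1 passed lower at all 3 times, as did 0.462% of all genes.

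**Figure D1:**
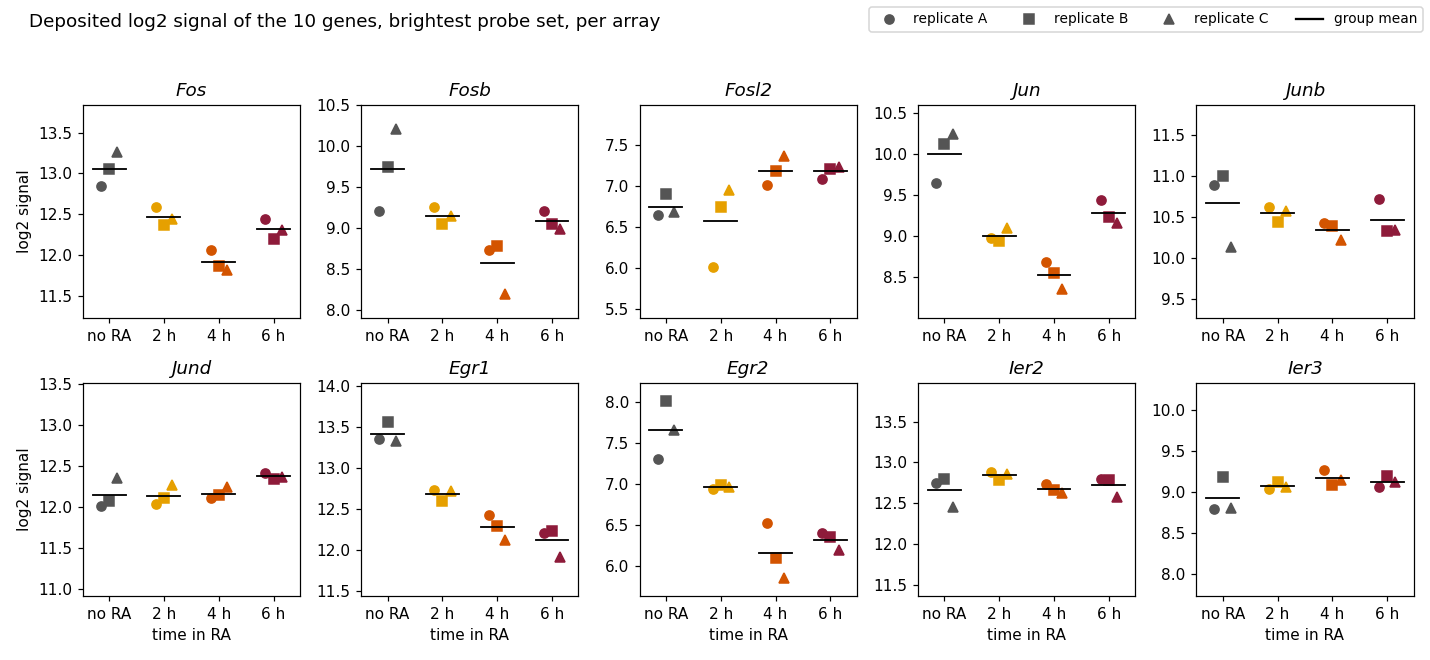
Deposited log2 signal (vertical axis, the same span in each panel) of each gene's brightest probe set on the 12 arrays, by time in RA (horizontal axis), with circles, squares and triangles for replicates A, B and C and a line at the group mean. Egr1 averages 12.12 at 6 h, against 13.41 without RA, while Jun is lowest at 4 h (8.53) and stands at 9.28 at 6 h.

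Among the Fos proteins, which bind DNA as dimers with Jun proteins, Fos itself gave 12.84, 13.05 and 13.26 without RA, 12.59, 12.37 and 12.44 at 2 h, 12.06, 11.87 and 11.82 at 4 h and 12.44, 12.20 and 12.32 at 6 h. All RA arrays lay below all untreated ones, and the 4 h arrays were the lowest. The log2 difference from no RA was -0.58 ± 0.11 at 2 h (SE, limma adjusted p = 0.0151), -1.14 ± 0.11 at 4 h (adjusted p = 2.8e-05) and -0.73 ± 0.11 at 6 h (adjusted p = 0.000389). The 2 h call was lost without RA 2 h replicate B (adjusted p = 0.0797) or C (0.0625) and in a fit of the untreated and 2 h arrays alone (0.100). The 4 h and 6 h calls held in each of the 16 alternatives run for each.

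Fosb, a Fos relative, had the widest untreated spread of the genes that fell: 9.20, 9.74 and 10.20 without RA, 9.25, 9.04 and 9.14 at 2 h, 8.73, 8.78 and 8.20 at 4 h and 9.20, 9.05 and 8.99 at 6 h. The 2 h arrays overlapped untreated replicate A, and the 4 h arrays lay below all untreated arrays. The 6 h arrays did so only barely, with 9.2006 in RA 6 h replicate A against 9.2025 in untreated replicate A. Its difference was -0.57 ± 0.21 at 2 h, which did not pass (limma adjusted p = 0.196), -1.14 ± 0.21 at 4 h (adjusted p = 0.00192) and -0.64 ± 0.21 at 6 h (adjusted p = 0.0409). With untreated replicate A left out it passed at 2 h (-0.83, adjusted p = 0.0418). The 6 h call did not survive leaving out untreated replicate B (adjusted p = 0.0894), untreated replicate C (-0.39, adjusted p = 0.131) or any single 6 h array (0.0643 without A, 0.100 without B and 0.109 without C). It was also lost with all probe sets in the adjustment (0.0508), with array weights (0.0829) and in a fit of the untreated and 6 h arrays alone (0.0875).

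Fosl2, which encodes the Fos relative Fra-2, is read by a pair of probe sets that disagreed. The brighter gave 6.65, 6.90 and 6.68 without RA, 6.01, 6.74 and 6.95 at 2 h, 7.01, 7.18 and 7.36 at 4 h and 7.08, 7.21 and 7.24 at 6 h, so the 4 and 6 h arrays lay above the untreated ones. The dimmer gave 7.67, 7.93 and 5.86 without RA, 6.81, 7.01 and 6.97 at 2 h, 6.40, 6.05 and 6.38 at 4 h and 6.56, 6.31 and 6.17 at 6 h, with untreated replicate C below every other array. Across the 12 arrays the pair had a Pearson r of -0.35, a description over arrays that share these 4 groups. Against no RA the brighter differed by 0.44 ± 0.19 at 4 h and 0.44 ± 0.19 at 6 h (limma adjusted p = 0.109 at both), and the dimmer by -0.88 ± 0.39 and -0.81 ± 0.39 (adjusted p = 0.151 and 0.178 over all probe sets). Neither passed, and no direction is given for Fosl2 against no RA. On the dimmer, untreated A and B (7.67 and 7.93) lay above every RA array, the highest of which was 7.01. Its result against no RA therefore depends on untreated replicate C, and the dimmer was not fitted without that array. In fits of only the groups compared, the brighter passed as higher at 4 h (adjusted p = 0.0345) and at 6 h (0.0153).

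**Figure D2:**
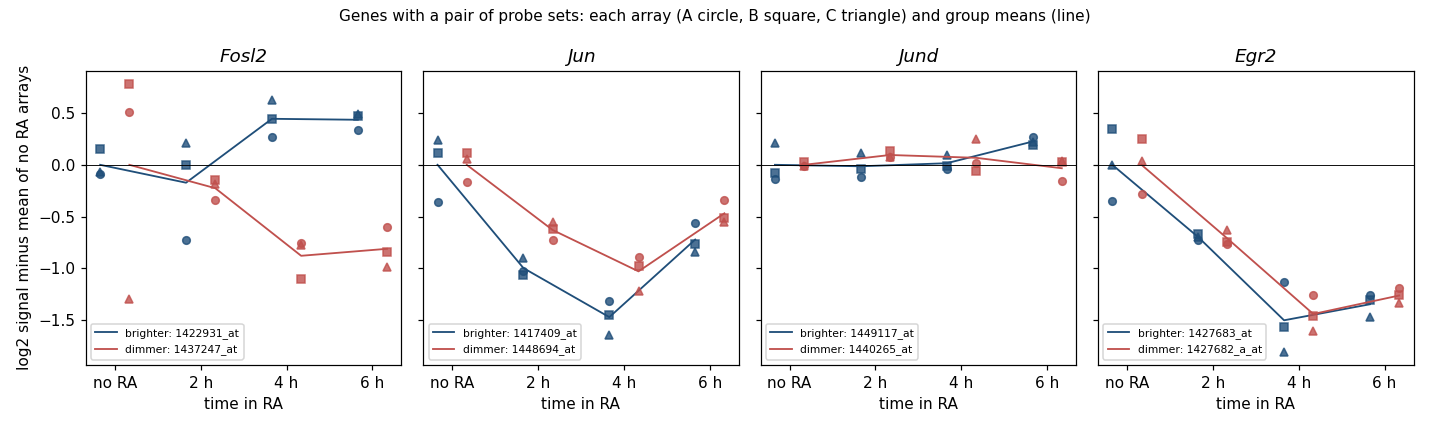
Log2 signal minus the mean of the untreated arrays (vertical axis) by time in RA (horizontal axis) for the 4 genes with a brighter (blue) and a dimmer (red) probe set, with one point per array and lines through group means. The pairs of Jun and Egr2 run together (r = 0.987 and 0.991 over 12 arrays), while those of Fosl2 part after 2 h (r = -0.35). The Jund pair did not run together either (r = -0.25), and its dimmer probe set read under 6.07 on all 12 arrays.

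The Jun proteins are the partners of Fos in AP-1. Jun gave 9.65, 10.12 and 10.24 without RA, 8.97, 8.94 and 9.10 at 2 h, 8.69, 8.55 and 8.36 at 4 h and 9.44, 9.24 and 9.16 at 6 h. Every RA array was below every untreated array, and the 3 times did not overlap each other. The difference was -0.998 ± 0.14 at 2 h (SE, limma adjusted p = 0.00229), -1.47 ± 0.14 at 4 h (adjusted p = 2.53e-05), a 2.77-fold fall, and -0.72 ± 0.14 at 6 h (adjusted p = 0.00209). These 3 calls held in all 16 alternatives run for each. The dimmer Jun probe set also passed lower at each time, by -0.63 ± 0.10, -1.03 ± 0.10 and -0.47 ± 0.10 (adjusted p = 0.0085, 4.43e-05 and 0.00643 over all probe sets).

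Junb, a Jun relative with weaker activity on many AP-1 targets, gave 10.89, 11.00 and 10.14 without RA, 10.62, 10.44 and 10.57 at 2 h, 10.42, 10.39 and 10.22 at 4 h and 10.73, 10.33 and 10.35 at 6 h. Untreated replicate C was the lowest of all 12 arrays, and replicates A and B were the highest. The difference did not pass at 2, 4 or 6 h (-0.13 ± 0.19, -0.34 ± 0.19 and -0.21 ± 0.19, limma adjusted p = 0.754, 0.229 and 0.462). Without untreated replicate C, Junb was lower at 4 h (-0.60, adjusted p = 0.00274) and at 6 h (-0.48, adjusted p = 0.0087), and not at 2 h. With array weights it was lower too (adjusted p = 0.0127 and 0.0344 at 4 and 6 h). The Junb call depends on that array.

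Jund, the Jun family member that many cells express steadily, ranged from 12.01 to 12.42 over the 12 arrays on its brighter probe set. Its differences were -0.014 ± 0.091, 0.015 ± 0.091 and 0.22 ± 0.091 at 2, 4 and 6 h (limma adjusted p = 0.953, 0.932 and 0.0863), with 95% intervals of -0.21 to 0.18, -0.18 to 0.21 and 0.03 to 0.42. It passed as higher at 6 h without untreated replicate C (0.33, adjusted p = 0.00516), with a trended prior (0.0441) and with array weights (0.0127). Its dimmer probe set read under 6.07 on all 12 arrays and did not pass at any time.

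Egr1, the best known of the Egr factors and a direct target of ERK signalling, gave 13.35, 13.56 and 13.33 without RA, 12.74, 12.59 and 12.71 at 2 h, 12.43, 12.29 and 12.12 at 4 h and 12.20, 12.23 and 11.92 at 6 h. The untreated, 2 h and 4 h arrays did not overlap, and the 4 and 6 h arrays did. The difference was -0.73 ± 0.10 at 2 h (SE, limma adjusted p = 0.0025), -1.13 ± 0.10 at 4 h (adjusted p = 1.97e-05) and -1.30 ± 0.10 at 6 h (adjusted p = 5.14e-06), a 2.46-fold fall. All 3 calls held in the 16 alternatives run for each. Of the 10 members, Egr1 had the smallest p in the F test for any change over the 4 groups (adjusted p = 1.23e-05), followed by Jun (6.42e-05). That test passed for Fos, Fosb, Fosl2 and Egr2 too, and for 36.3% of all genes.

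Egr2, also called Krox20 and known for its role in hindbrain segments and myelinating glia, gave 7.30, 8.01 and 7.66 without RA, 6.93, 6.98 and 6.96 at 2 h, 6.52, 6.09 and 5.85 at 4 h and 6.40, 6.35 and 6.19 at 6 h. All RA arrays were below the untreated ones, and 1 of the 4 h arrays was under 6.07, where signal was not tested against background. The difference was -0.70 ± 0.17 at 2 h, which did not pass (limma adjusted p = 0.0603), -1.50 ± 0.17 at 4 h (adjusted p = 9.49e-05) and -1.35 ± 0.17 at 6 h (adjusted p = 0.000146). At 2 h it passed without untreated replicate A (-0.87, adjusted p = 0.0231), and its dimmer probe set, which read under 6.07 on 8 of 12 arrays, passed at 2 h (-0.71 ± 0.12, adjusted p = 0.012 over all probe sets). The 2 h difference also passed with its probe sets averaged (0.0250), without dim genes (0.0429), with a trended prior (0.0397) and with array weights (0.0409). Over the 14 probe sets, 5, 7 and 6 were lower at 2, 4 and 6 h, against 0.906%, 9.36% and 9.83% of the 45037 tested.

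Ier2 and Ier3 carry immediate early response in their names and belong to no AP-1 or Egr family. Ier2 ranged from 12.46 to 12.89, and its differences were 0.17 ± 0.092, 0.0073 ± 0.092 and 0.051 ± 0.092 at 2, 4 and 6 h (limma adjusted p = 0.358, 0.967 and 0.742), with 95% intervals of -0.03 to 0.37, -0.19 to 0.21 and -0.15 to 0.25. The lower bounds lie above the differences of the 5 genes that fell. Ier3, a stress-inducible gene with roles in cell survival, ranged from 8.79 to 9.27 and gave 0.15 ± 0.097, 0.24 ± 0.097 and 0.20 ± 0.097 (adjusted p = 0.448, 0.0904 and 0.146). Without untreated replicate B, Ier3 was higher at 4 h (0.37, adjusted p = 0.00416) and 6 h (0.33, adjusted p = 0.00672).

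**Figure D3:**
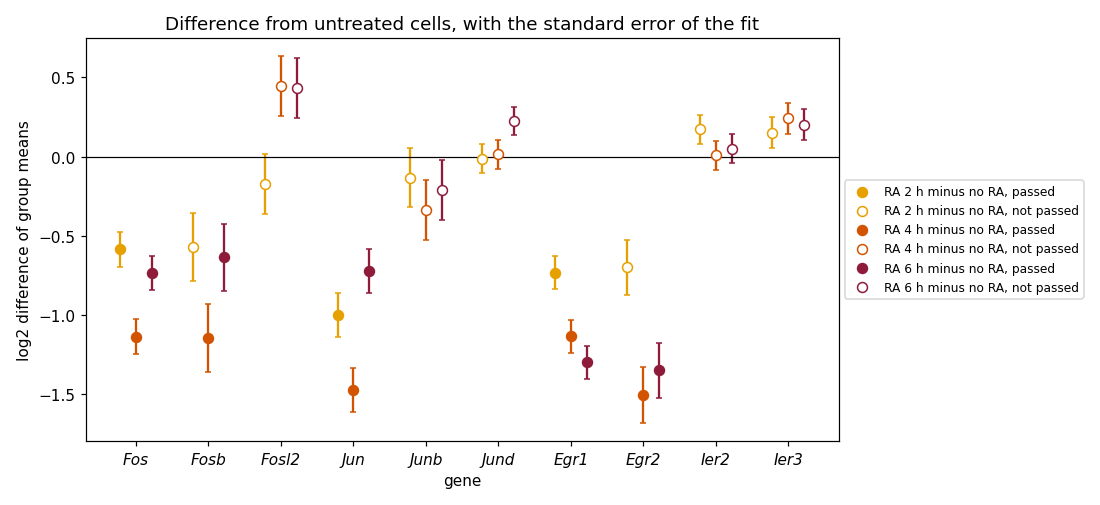
Log2 difference of group means from untreated cells (vertical axis) for each of the 10 genes (horizontal axis) at 2, 4 and 6 h, with bars for the standard error of the fit, filled points for an adjusted p under 0.05 and open points otherwise. Filled points appear for Fos, Fosb, Jun, Egr1 and Egr2, all below 0, down to -1.50 for Egr2 at 4 h.

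The times were then compared with each other, which asks how the falls ran their course. From 2 to 4 h, Fos, Jun, Egr1 and Egr2 went lower still and Fosl2 went higher, 5 of 10 members, while 24.6% of all genes passed in that step, 11.9% lower and 12.7% higher (limma). The log2 differences of 4 h minus 2 h were -0.55 ± 0.11 for Fos (adjusted p = 0.00367), -0.47 ± 0.14 for Jun (0.0279), -0.40 ± 0.10 for Egr1 (0.015), -0.80 ± 0.17 for Egr2 (0.00609) and 0.62 ± 0.19 for Fosl2 (0.033). Fos and Egr2 kept the call without any single array. Jun lost it without any 1 of the 2 h arrays (adjusted p = 0.0608 without A, 0.0561 without B and 0.0959 without C) or without RA 4 h replicate B (0.0668) or C (0.103), and Egr1 without RA 2 h replicate A or C or RA 4 h replicate C (0.0546, 0.0531 and 0.0632). Fosl2 lost it without RA 2 h replicate A (0.34, adjusted p = 0.0662) or RA 4 h replicate B or C (0.0792 and 0.111), and in a fit of only the 2 and 4 h arrays (0.0742). Its dimmer probe set gave -0.65 ± 0.39 (adjusted p = 0.308 over all probe sets), and with the probe sets averaged the difference was -0.018 (adjusted p = 0.969).

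From 4 to 6 h, Jun was the 1 member that changed, where 0.588% of all genes did, 0.275% lower and 0.313% higher (limma). It was higher by 0.75 ± 0.14 at 6 h than at 4 h (adjusted p = 0.0423), a 1.68-fold difference, with no overlap between the arrays. The size was 0.66 to 0.83 when each of the 6 arrays was left out, and the call was then lost in every case (adjusted p = 0.092 to 0.133). The dimmer Jun probe set gave 0.56 ± 0.10 (adjusted p = 0.0599 over all probe sets). The 6 h arrays of Fos and Fosb also lay above those of 4 h, by 0.40 ± 0.11 and 0.51 ± 0.21 (adjusted p = 0.129 and 0.338), and Egr1 and Egr2 gave -0.16 ± 0.10 and 0.15 ± 0.17 (0.534 and 0.765). In all, 4 members had every 6 h array above every 4 h array, the fourth being Jund, and none had every one below. Among all genes, 23.8% had no overlap in this step in either direction.

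Over the whole interval from 2 to 6 h, 3 of 10 members passed, against 32.1% of all genes, 15.1% lower and 17.1% higher (limma). Egr1 and Egr2 were lower at 6 h than at 2 h, by -0.56 ± 0.10 (adjusted p = 0.00154) and -0.65 ± 0.17 (0.0139), and Fosl2 was higher on its brighter probe set, by 0.61 ± 0.19 (0.028). Fos and Jun gave -0.15 ± 0.11 and 0.28 ± 0.14 (0.326 and 0.156). The Egr2 call was lost without RA 6 h replicate C (adjusted p = 0.0513). That of Fosl2 was lost without RA 2 h replicate A (0.33, adjusted p = 0.0588) and without each single 6 h array (0.0505 without A, 0.0736 without B and 0.0763 without C), and in a fit of only the 2 and 6 h arrays (0.054). The dimmer Fosl2 probe set ran the other way, by -0.59 ± 0.39 (adjusted p = 0.316 over all probe sets), with its 6 h arrays all below those of 2 h, and the averaged probe sets gave 0.011 (adjusted p = 0.979).

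By likeness of profile over the 12 arrays, among 5755 other genes that changed over the groups and lay above the median of all values, the closest to Egr1 were Ahr (Pearson r = 0.961), Six4 (0.958), Epb41l4a (0.956), Mtmr12 (0.955) and Pdha1 (0.955). The closest to Jun were Nfkb2 (0.962), Fam110b (0.941), Map7d1 (0.940), Cep83 (0.934) and Mitf (0.927). Ahr, the aryl hydrocarbon receptor, differed from no RA by -0.48, -0.92 and -1.21 at 2, 4 and 6 h, and Nfkb2, an NF-kappaB subunit, by -0.21, -0.37 and -0.21. Between members, r was highest for Egr1 and Egr2 (0.950), Fos and Jun (0.940) and Fos and Fosb (0.934). Next came Fosb and Jun (0.922) and Fos and Egr2 (0.917), and other pairs ran down to -0.63 for Fos and Ier3. These values describe arrays that share their 4 groups and carry no test.

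Among 11 other AP-1 family members and small Maf partners, 2, 3 and 3 were higher and 0, 1 and 2 lower at 2, 4 and 6 h (limma), and the share called in either direction was 2.68%, 26.9% and 29.7% of all genes. Their median log2 difference was 0.058, 0.057 and 0.052. Atf3, a stress-induced member, was higher by 0.93 ± 0.12, 0.58 ± 0.12 and 0.79 ± 0.12 (adjusted p = 0.00113, 0.0032 and 0.000391). Jdp2, a Jun dimerization protein that represses AP-1, was higher by 0.92 ± 0.19, 0.997 ± 0.19 and 1.32 ± 0.19 (adjusted p = 0.0233, 0.00199 and 0.000259). Maff, a small Maf protein, was lower at 4 and 6 h by -1.14 ± 0.25 and -1.13 ± 0.25 (adjusted p = 0.00516 and 0.0048), and Atf7 was higher by 0.46 ± 0.091 and 0.39 ± 0.091 (0.00307 and 0.00634). Mafk was lower at 6 h by -0.40 ± 0.11 (0.0155). Without untreated replicate A, 1 member was higher at 2 h, and without C, 1 and 3 were lower at 2 and 4 h.

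Of 36 other immediate early genes, 3, 4 and 3 were higher and 1, 10 and 13 lower at 2, 4 and 6 h (limma), with medians of -0.034, -0.14 and -0.31. Of all genes, 1.50%, 12.8% and 15.0% were higher and 1.19%, 14.1% and 14.7% lower at these times. Falls were led at 4 h by Ccn1, a secreted matrix protein (-1.33 ± 0.27, adjusted p = 0.00309), Arc, a synaptic regulator in neurons (-1.28 ± 0.28, 0.00545), and the zinc finger factor Klf6 (-1.28 ± 0.23, 0.00168), and these 3 gave -1.38 ± 0.27, -1.23 ± 0.28 and -1.05 ± 0.23 at 6 h. Zfp36l2, an mRNA decay factor, was lower at 2 h (-0.63 ± 0.087, 0.00223) and 6 h (-0.33 ± 0.087, 0.0126) and did not pass at 4 h (-0.12 ± 0.087, 0.375). Ier5l was higher at every time, by 1.37 ± 0.12, 1.99 ± 0.12 and 2.08 ± 0.12 (adjusted p = 5.92e-05, 1e-06 and 5.26e-07), so members of 1 gene class moved in both directions. The kinase Plk3 was higher at 2 h (1.36 ± 0.21, 0.00538) and 4 h (0.65 ± 0.21, 0.0427) and did not pass at 6 h (0.60 ± 0.21, 0.0533). The survival factor Mcl1 was higher by 0.49 ± 0.095, 0.30 ± 0.095 and 0.29 ± 0.095 (0.0171, 0.0326 and 0.0371). Without untreated replicate C, 7, 17 and 23 of the 36 were lower. The list's mean log2 signal was 9.23 in that array and 9.69 and 9.86 in untreated A and B.

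**Figure D4:**
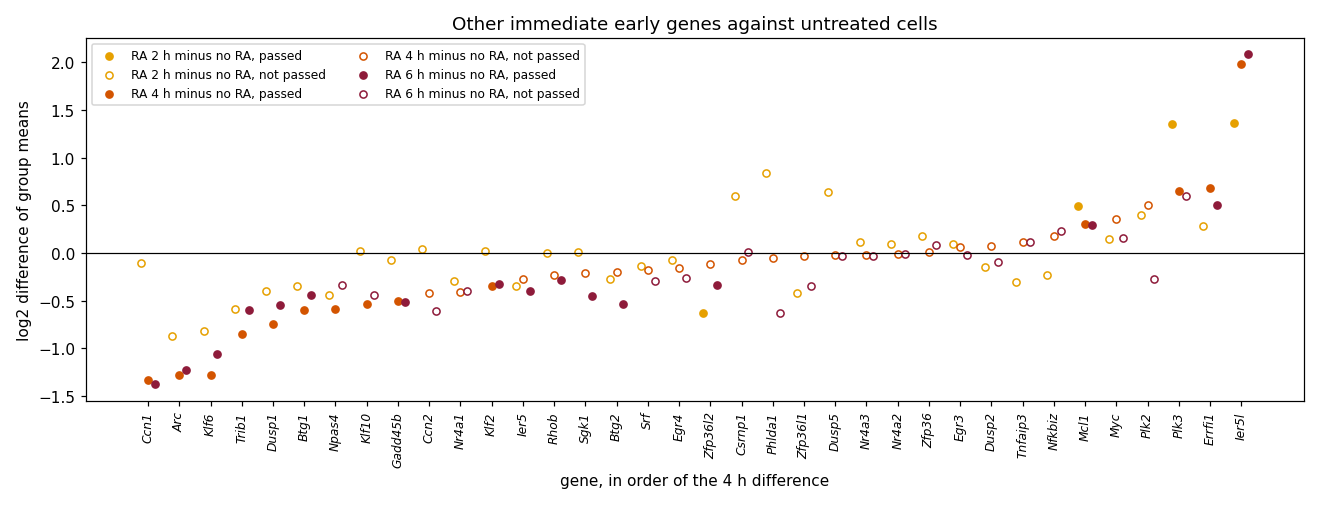
Log2 difference of group means from untreated cells (vertical axis) for 36 other immediate early genes, ordered along the horizontal axis by their 4 h value, at 2, 4 and 6 h, with filled points for an adjusted p under 0.05. Ccn1, Arc and Klf6 lie lowest at 4 h (-1.33, -1.28 and -1.28) and Ier5l highest (1.99).

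Of 20 regulators of these genes, 16 were measured, and 0, 3 and 4 were higher and 1, 3 and 3 lower at 2, 4 and 6 h (limma), with medians of -0.10, -0.097 and -0.0033, beside the 1.50%, 12.8% and 15.0% higher and 1.19%, 14.1% and 14.7% lower among all genes. Mrtfa, a serum response factor coactivator, was lower at 2 h (-0.42 ± 0.078, adjusted p = 0.0137), did not pass at 4 h (0.19 ± 0.078, 0.0983) and was higher at 6 h (0.30 ± 0.078, 0.0118). It was higher at 4 h than at 2 h (0.61 ± 0.078, 0.000267) and at 6 h than at 2 h (0.73 ± 0.078, 4.87e-05). Nab1, a corepressor of Egr proteins, was lower at 4 and 6 h (-0.61 ± 0.19 and -0.68 ± 0.19, adjusted p = 0.0324 and 0.0168), and Rps6ka3, a kinase activated by ERK, likewise (-0.30 ± 0.062 and -0.31 ± 0.062, 0.0035 and 0.00273). Creb1, which binds the cyclic AMP response element, was higher (0.35 ± 0.11 and 0.62 ± 0.11, 0.0367 and 0.0012), as was the JNK pathway kinase Map2k4 (0.30 ± 0.064 and 0.36 ± 0.064, 0.00405 and 0.00116). Lower calls at 2 h numbered 0, 2 and 3 without untreated replicate A, B and C. At 4 h they numbered 5 without C, and at 6 h 1, 1 and 5 without A, B and C.

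Feeder markers and ES markers were measured beside these results. Over 29 feeder fibroblast markers, 0, 4 and 2 were higher and 0, 1 and 2 lower at 2, 4 and 6 h (limma), with medians of 0.25, 0.26 and 0.18 and 9 at an unadjusted p under 0.05 at 2 h. The shares of all genes called were 1.50%, 12.8% and 15.0% higher and 1.19%, 14.1% and 14.7% lower, which also stand beside the ES marker counts. Their mean log2 signal ranged from 8.20 to 8.87 without RA, 8.65 to 8.84 at 2 h, 8.73 to 8.88 at 4 h and 8.61 to 8.74 at 6 h. Without untreated replicate B, 9, 15 and 11 were higher, without A 0, 2 and 1, and without C 0, 1 and 1. Over 8 ES cell markers, 1, 0 and 0 were higher and 1, 5 and 5 lower, and their mean ranged from 12.91 to 12.95 without RA and from 12.54 to 12.61 at 6 h. The falls of Fos, Jun, Egr1 and Egr2 at 4 and 6 h were called without untreated replicate A, B or C as well. Leaving out an array does not test the part of either list in the results above, and that part was not tested.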

How the data were processed

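RNA of KH2 cells was measured on 12 Affymetrix mouse arrays, from 200 ng per sample, per the labels' protocols. The deposited values are log2 signal, 1 per probe set and array. The submitters' processing notes list limma 3.4.3, and the method of summary and normalization is not given in the sources used here.

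Of 45101 probe sets, 34958 were named for 1 gene, 932 for several and 9211 for none, and 64 were controls. Each of 18193 genes was read on its brightest probe set. All 45037 other than controls were also fitted on their own. All 12 arrays entered 1 limma model (version 3.58.1, R 4.3.3) with a mean per group, 8 residual and 3.78 prior degrees of freedom, and Benjamini-Hochberg adjustment over all genes or probe sets and a threshold of 0.05. Values are log2 differences with the fit's standard error (SE). The fits were tested on simulated data. The members, lists, comparisons and alternatives were chosen with earlier results of these data known. From the other lists, up to 4 called genes per RA time were named by size, except that none was named from the feeder and ES cell marker lists. Figures were drawn with matplotlib 3.10.9.
Genes like Egr1 or Jun were the 5 with the highest correlation. Listed genes with no probe set of their own were not analysed here. The closing section gives the effect of the alternatives.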

Additional observations from a re-analysis of the deposited data

Results flagged for a closer look

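Levels differed between RA times for 5 of the 10 members by limma. The comparisons between RA times share RA arrays with each other, and no untreated array enters their differences. Of all genes, 24.6% passed at 4 h minus 2 h, 0.588% at 6 h minus 4 h and 32.1% at 6 h minus 2 h. At 4 h minus 2 h, Fos differed by -0.55, Jun by -0.47, Egr1 by -0.40, Egr2 by -0.80 and Fosl2 by 0.62. At 6 h minus 4 h, Jun differed by 0.75. At 6 h minus 2 h, Egr1 differed by -0.56, Egr2 by -0.65 and Fosl2 by 0.61. The Fosl2 values are those of its brighter probe set: the dimmer one gave -0.65 at 4 h minus 2 h and -0.59 at 6 h minus 2 h, neither passing, and the averaged probe sets gave -0.018 and 0.011 (limma adjusted p = 0.969 and 0.979). Groups of 3 arrays are too small for a test of single outlying arrays.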

How the results depend on the processing

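The number of members that passed at 4 h and 6 h against no RA stayed within 1.5 times of 5 in every alternative run: quantile normalization, median centring, averaged, all or suffix-free probe sets, dim genes dropped, a robust trended prior, array weights, only the compared groups fitted, the replicate letter as a block and each array left out. Calls in either direction were counted, and at 6 h the members called changed. Fosb kept its 6 h call in 7 of 16 alternatives, while Junb as lower and Jund, Ier3 or Fosl2 as higher passed in some. At 2 h the number passing was 3, and 2 to 5 with an array left out. For 4 h minus 2 h it was 5, and 2 to 5 with an array left out. For 6 h minus 4 h it was 1, and 0 with every probe set, 2 with array weights and 0 whenever an array was left out. For 6 h minus 2 h it was 3, and 5 with array weights and 1 to 4 with an array left out. With the replicate block the paired fit gave 0 at 6 h minus 4 h, lost Fosb at 6 h (adjusted p = 0.0657) and called Fosl2 higher at 4 and 6 h (0.0481 and 0.0487) and Jund at 6 h (0.0466) against no RA. Of 18 pairs of arrays with the same letter in different groups, deviations from group means correlated between -0.16 and 0.26, and 4 were over 0.1, so the letters were not taken to pair the arrays. Between 4 and 6 h the same-letter values were 0.19, 0.034 and 0.26 for A, B and C, against -0.23 to 0.059 for unlike letters. Pairing in that step is therefore not settled, and the block fit above allows for it. With averaged probe sets Fosl2 turned to -0.018 at 4 h minus 2 h, since its probe sets disagree. Normalization moved the median of all genes by under 0.1. Of the members' values under alternatives, 883 kept their side of the threshold, 39 lost a call, 31 gained one and 1 reversed. Other causes were not tested. The number of arrays and an unknown background limit what dim probe sets show.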
